A study of Mus musculus with 12 samples.

Results

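Toll-like receptors are pattern-recognition receptors of innate immunity, and 8 of them were followed here in mouse microglia, the resident macrophages of the brain, together with the co-receptor gene Cd14 and the adaptor gene Myd88. All array probes whose accession mapped to these 10 genes were taken, out of 37147 genes or accessions on one array design and 45356 on the other. The receptors were Tlr1, Tlr2, Tlr3, Tlr4, Tlr6, Tlr7, Tlr9 and Tlr13. The designs carried 11 and 17 probes for these genes, and all 10 genes had a probe that passed the filter on dim signal on both.

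Microglia came from male mice aged 8 weeks and were enriched with magnetic beads for the fractalkine receptor CX3CR1. After transient middle cerebral artery occlusion (tMCAO), a stroke model in which a brain artery is blocked and then reopened, the groups were ZEB1-knock down, ZEB1-overexpression and wild type mice. Before tMCAO, as untreated controls, the same genotypes were ZEB1-knock down, ZEB1-overexpression and wild type. Each of the 6 groups had 2 arrays. The promoter and cell type of the transgene, the way of the knock-down, the time after tMCAO and any sham operation are not given in the sources used here. The labels do not say whether the 2 samples of a group came from separate animals, so the p-values reflect spread among samples that may be technical repeats.

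Toll-like receptors at the cell surface bind microbial lipids, lipoproteins and proteins, whereas those in endosomes bind nucleic acids. Most of them pass the signal through the adaptor MyD88 to kinases of the IRAK family, which leads to NF-kB activation and to cytokine genes; Tlr3 uses the adaptor TRIF, encoded by Ticam1, and Tlr4 uses both. In the brain, microglia are known as the main cells that carry these receptors, which also bind molecules released by damaged tissue.

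ZEB1-overexpression and wild type arrays after tMCAO lay on a slide of 4 arrays, and the other 4 groups on a slide of 8 arrays of another design. Groups were compared only within a slide, since slide and group cannot be told apart across them, and the knock-down after tMCAO thus had no wild type partner on its slide. The 75th percentile of the signal was 1078 to 1515 intensity units on the first slide and 2566 to 3702 on the second, and 60.4% to 73.9% of spots were well above background. The scanner software marked 1.03% to 23.7% of the spots of an array as non-uniform or outlying, and these were left out of the tests. Arrays of a group correlated at 0.975 to 0.990 across genes, which are not independent replicates. Zeb1 itself, the manipulated gene, did not follow the labels: its log2 difference was 0.13 ± 0.23 (limma adjusted p = 0.984) in knock-down and 0.26 ± 0.23 (adjusted p = 0.771) in overexpression against wild type before tMCAO, and -0.02 ± 0.29 (adjusted p = 0.974) in overexpression against wild type after tMCAO (± SE, n = 2 arrays each, marked spots kept). Groups are therefore the arrays labelled as such. All 8 microglia markers were well above background on all 12 arrays, but so were the 7 neuron, 7 oligodendrocyte lineage and 6 astrocyte markers. In such bulk samples fewer cells of a type and less RNA per cell cannot be told apart.

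All levels are log2 signal with the 75th percentile of the array set to 0, and each array's level is given with all spots kept. Each gene was followed across groups by 1 probe per slide, the brightest. Levels of different genes come from different probes and were not set against each other. On the 8-array slide Tlr13, the endosomal receptor for bacterial ribosomal RNA, averaged 0.98 ± 0.28 in knock-down after tMCAO, -1.16 ± 0.29 in overexpression before it, -1.17 ± 0.14 in knock-down before it and -1.04 ± 0.20 in wild type before it (SD, n = 2 each). Cd14 averaged 0.59 ± 0.37, -1.32 ± 0.10, -1.54 ± 0.09 and -1.03 ± 0.02 in the same 4 groups. For both genes knock-down after tMCAO stood first, and for Tlr13 the 3 groups before tMCAO did not differ beyond their spread. Tlr6, a surface partner of Tlr2, averaged -2.65 ± 0.63 in knock-down after tMCAO, -4.89 ± 0.22 in overexpression before it, -4.94 ± 0.03 in knock-down before it and -4.59 ± 0.21 in wild type before it. Its order was thus the same at the top, and 1 of its overexpression spots was not well above background. Over the 10 genes, the mean of knock-down after tMCAO lay -0.29 to 2.67 from that of wild type before it (median 1.64), whereas overexpression before tMCAO lay -0.35 to 0.28 from it (median -0.15) and knock-down before tMCAO -0.54 to 0.26 (median -0.15).

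**Figure D1:**
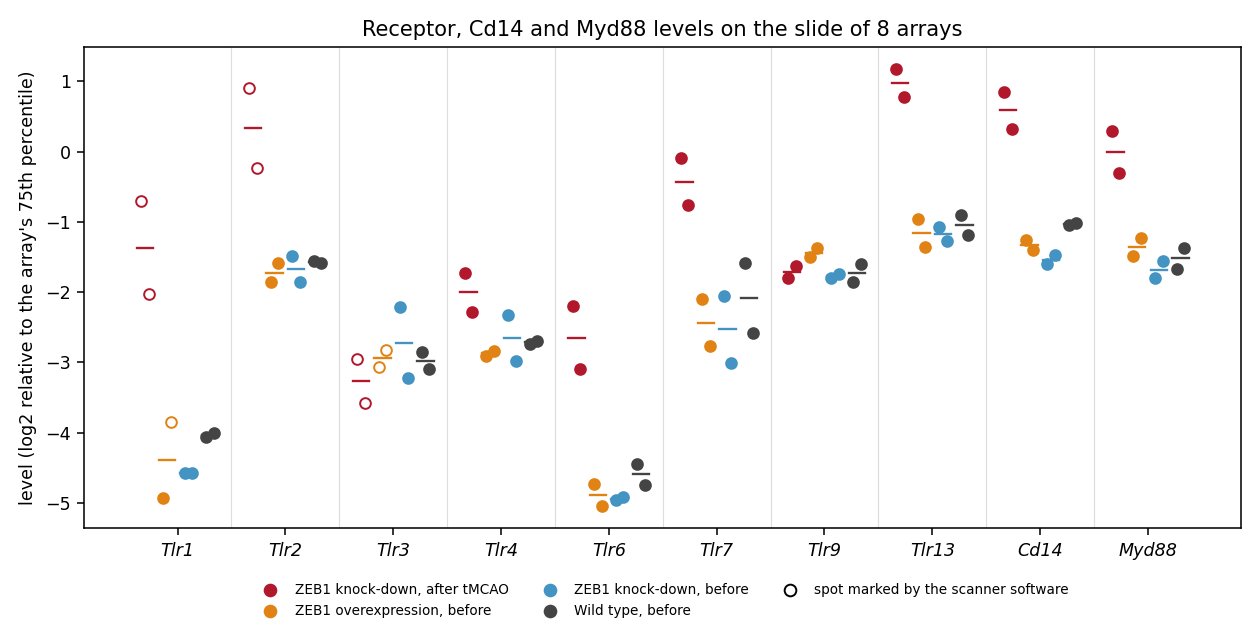
Level of each gene (y axis, log2, with the 75th percentile of an array at 0) on each of the 8 arrays of the larger slide. Dots are arrays, short lines are group means, and open dots are spots marked by the scanner software. Both knock-down arrays after tMCAO (left in each column) lie above both knock-down arrays before it for 8 of 10 genes, the exceptions being Tlr3 and Tlr9.

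The comparison of ZEB1-knock down after and before tMCAO asked how the receptors differed after the artery was blocked within this genotype. Of the 7 genes with unmarked spots in both groups, 5 were higher after tMCAO: Tlr13, Cd14, Tlr6, Tlr7 and Myd88. Over all 24646 genes tested, 10.1% were called higher and 16% were called in either direction (limma, Benjamini-Hochberg adjusted p under 0.05). The median log2 difference of the 7 genes was 2.10, against 0.04 over all genes tested. With marked spots kept, 7 of the 10 genes were called, Tlr1 and Tlr2 in addition, with 10.1% of 30525 genes called higher in that fit. In 8 of 10 genes both arrays after tMCAO lay above both arrays before it, as they did in 33.6% of all genes.

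Among the surface receptors, Tlr2 pairs with Tlr1 or Tlr6 to bind bacterial lipoproteins. Tlr6 lay at -2.20 and -3.09 in the knock-down arrays after tMCAO, against -4.96 and -4.92 in those before it. Both arrays after tMCAO were higher, and the log2 difference was 2.29 ± 0.31 (adjusted p = 0.00957, SE, n = 2 each). Tlr2 lay at 0.90 and -0.23 after tMCAO, against -1.49 and -1.86 before it. The groups did not overlap, but both spots after tMCAO were marked, and the difference of 2.01 ± 0.37 (adjusted p = 0.0189) exists only with marked spots kept.

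Tlr1 had the largest difference of the 10 genes, again on marked spots. Its brighter probe lay at -0.71 and -2.03 after tMCAO, against -4.58 and -4.57 before it, a difference of 3.21 ± 0.49 with marked spots kept (adjusted p = 0.0123). A second Tlr1 probe, with no marked spot in either group, lay at -1.23 and -2.53 after tMCAO, against -4.86 and -5.21 before it. Fitted probe by probe, that second probe differed by 3.16 ± 0.46 (adjusted p = 0.0106), so both probes of Tlr1 were higher.

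Tlr4, the receptor for lipopolysaccharide, and Cd14, the surface protein that hands lipopolysaccharide to it, differed in their calls, and the difference between them was not tested. Cd14 lay at 0.84 and 0.33 in knock-down arrays after tMCAO, against -1.60 and -1.47 before it, a difference of 2.12 ± 0.20 (adjusted p = 0.00481). A second Cd14 probe differed by 2.38 ± 0.21. Tlr4 lay at -1.73 and -2.28 after tMCAO, against -2.33 and -2.98 before it. The Tlr4 arrays did not overlap by a narrow gap, and the difference of 0.65 ± 0.28 did not pass (adjusted p = 0.146, 95% interval -0.01 to 1.32).

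Of the endosomal receptors, Tlr13 and Tlr7 were called higher, and Tlr9 and the brighter Tlr3 probe were not. Tlr13 lay at 1.17 and 0.78 after tMCAO, against -1.07 and -1.28 before it, a difference of 2.15 ± 0.23 (adjusted p = 0.00598). With probes averaged it was 4.0 (adjusted p = 0.004), where the spots of the dimmer Tlr13 probe after tMCAO were marked and left out, so that the mean after tMCAO is of 1 probe and the mean before it of both. Tlr7, a receptor for single-stranded RNA, lay at -0.09 and -0.77 after tMCAO, against -2.06 and -3.0 before it. These groups were also apart, but each had wide spread (SD 0.48 after tMCAO and 0.67 before it), and the difference of 2.10 ± 0.49 passed narrowly (adjusted p = 0.0379). It lost the call when any of the 4 arrays was left out (adjusted p 0.0533 to 0.164).

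Tlr9, a receptor for unmethylated CpG DNA, lay at -1.80 and -1.63 after tMCAO, against -1.80 and -1.74 before it. The groups overlapped, and its difference was 0.05 ± 0.16 (adjusted p = 0.840), with a 95% interval of -0.34 to 0.44, which leaves out a difference of the size seen for Tlr13. Tlr3, the receptor for dsRNA, had its brighter probe at -2.95 and -3.58 after tMCAO, against -2.21 and -3.23 before it. The groups overlapped, all spots after tMCAO were marked, and the difference with marked spots kept was -0.55 ± 0.37 (adjusted p = 0.339). The second Tlr3 probe, unmarked, lay at -4.45 and -4.65 after tMCAO, against -3.70 and -3.98 before it, and fell by 0.71 on the log2 scale with an SE of 0.17 (adjusted p = 0.0387 in the fit of each probe). Tlr3 was thus the 1 receptor with a lower call, on 1 of its 2 probes.

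Myd88 encodes the adaptor shared by all these receptors except Tlr3. It lay at 0.29 and -0.31 after tMCAO, against -1.80 and -1.56 before it, with no overlap and a difference of 1.67 ± 0.25 (adjusted p = 0.0123). Leaving out either knock-down array before tMCAO ended the calls of Myd88 and Tlr6 (adjusted p 0.0604 to 0.0717), where 2 genes, Cd14 and Tlr13, stayed called. In 9 of 10 genes, replicate 1 after tMCAO was higher than replicate 2, by up to 1.32.

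**Figure D2:**
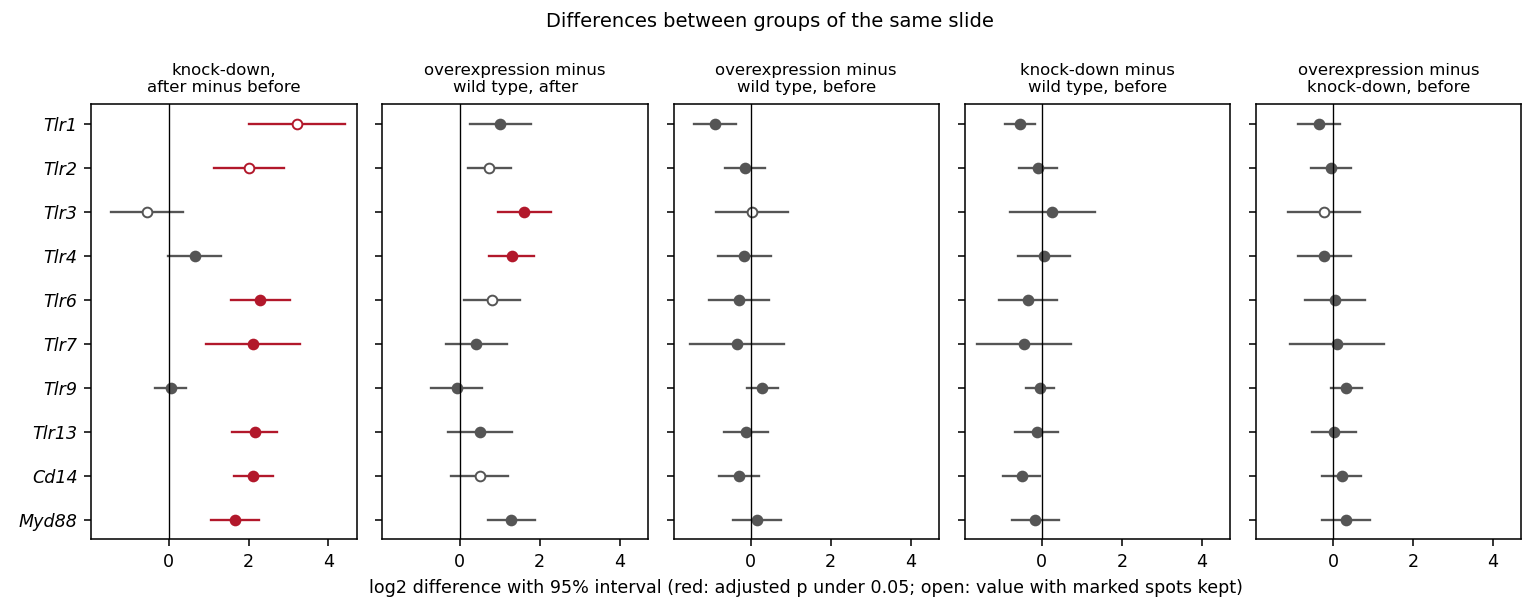
Log2 difference of each gene (x axis) with its 95% interval in the 5 comparisons within a slide, the first-named group minus the second. Red marks an adjusted p under 0.05 and open circles values with marked spots kept, given where the unmarked spots allow no test; red appears in the first panel (Tlr1, Tlr2, Tlr6, Tlr7, Tlr13, Cd14 and Myd88) and the second (Tlr3 and Tlr4).

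Sequences upstream of the genes were looked up because 5 of the 7 genes tested were called in the same direction. RefSeq promoter windows (GRCm38.p6, 250 bases before to 50 after a transcript start) matched 7 of the 10 genes. The 4 windows below, picked from 9 found, belong to 3 of the genes called higher (Tlr13, Tlr6 and Myd88) and to Tlr9, the gene with the smallest difference. Capitals mark matches on either strand to 3 motifs, and matches may overlap. The core of an interferon-stimulated response element was searched as GAAA, any 2 bases, then GAAA again. A core of sites for the macrophage factor PU.1 was searched as GAGGAA. An NF-kB core was searched as GGG, any 5 bases, then CC.
Tlr13: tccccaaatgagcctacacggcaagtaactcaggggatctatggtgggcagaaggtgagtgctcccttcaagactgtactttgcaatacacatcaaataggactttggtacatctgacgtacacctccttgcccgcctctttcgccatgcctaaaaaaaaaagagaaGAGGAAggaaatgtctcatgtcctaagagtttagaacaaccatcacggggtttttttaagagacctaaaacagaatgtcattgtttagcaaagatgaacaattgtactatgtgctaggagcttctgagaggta
Tlr6: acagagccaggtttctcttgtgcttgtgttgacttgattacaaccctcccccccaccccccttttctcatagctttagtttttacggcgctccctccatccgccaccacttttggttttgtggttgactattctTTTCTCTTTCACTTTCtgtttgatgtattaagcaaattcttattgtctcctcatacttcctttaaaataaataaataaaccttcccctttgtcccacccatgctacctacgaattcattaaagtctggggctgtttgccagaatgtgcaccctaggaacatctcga
Myd88: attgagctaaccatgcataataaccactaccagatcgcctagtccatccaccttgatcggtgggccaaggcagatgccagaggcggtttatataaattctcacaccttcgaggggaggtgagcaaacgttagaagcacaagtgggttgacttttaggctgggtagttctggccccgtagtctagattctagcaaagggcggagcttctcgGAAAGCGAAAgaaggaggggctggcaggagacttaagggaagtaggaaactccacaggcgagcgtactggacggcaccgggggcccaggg
Tlr9: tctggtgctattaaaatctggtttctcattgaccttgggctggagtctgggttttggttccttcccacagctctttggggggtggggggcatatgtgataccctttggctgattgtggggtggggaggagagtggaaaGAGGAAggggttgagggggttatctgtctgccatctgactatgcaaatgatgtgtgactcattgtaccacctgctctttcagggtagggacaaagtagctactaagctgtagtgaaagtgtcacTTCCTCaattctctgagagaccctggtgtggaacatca
The Myd88 window, chr9:119339969-119340268 on the minus strand, and the Tlr6 window, chr5:64959117-64959416 on the minus strand, hold the interferon-response core, the Tlr6 window with 2 overlapping matches. No other of the 9 windows found for these genes holds it, the second start of Tlr6 included. Of all 32851 windows of this length, 3.44% hold it. The Tlr13 window, chrX:106143025-106143324 on the plus strand, and the Tlr9 window, chr9:106222348-106222647 on the plus strand, hold the PU.1 core, found in 28.3% of all windows. A window of Tlr1, called higher with marked spots kept, holds the PU.1 core too. The NF-kB core is in none of these 4 windows but in those of Tlr2, Tlr3 and a second start of Tlr6, against 50.8% of all windows. These are matches of letters and not shown to be sites, and Tlr13, which was called, and Tlr9, which was not, hold the same core.

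The other genes of the pathway were described from lists, where 10.1% of all genes tested were called higher in this comparison. Of the 3 other mouse Toll-like receptors measured, 1 had a difference above 0, and the list median was -0.26. That 1 was Tlr8, an endosomal relative of Tlr7. Its level was at least 7.41-fold higher after tMCAO than in knock-down arrays before it, where it was not well above background. Of these 2 groups Tlr8 was above background after tMCAO alone, so it is given without a p-value and not as a call. The other counts on this slide keep such genes, unlike those of the 4-array slide below. Co-receptors and chaperones had 3 of 7 called, all higher: Cd36, a scavenger receptor that works with Tlr2, at 1.96 ± 0.26 (adjusted p = 0.00919), Slc15a3, an endolysosomal peptide transporter, at 1.58 ± 0.22, and Ly86, the partner of the receptor homologue Cd180, at 1.30 ± 0.23, the last 2 on 1 array after tMCAO. Ly96, which encodes the MD-2 subunit that Tlr4 needs to bind lipopolysaccharide, differed by -0.04 ± 0.20 and, like Tlr4, did not pass. The median of the list was 1.30.

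Adaptors had 2 of 4 called, Tirap, the bridge between Tlr2 or Tlr4 and MyD88, at 1.08 ± 0.18 (adjusted p = 0.0153) and Ticam1 at 1.16 ± 0.29 (adjusted p = 0.0453). Among signalling kinases and ubiquitin ligases 3 of 12 were called higher, with a list median of -0.04. These were Irak4, the kinase that binds MyD88 directly, at 1.70 ± 0.18 (adjusted p = 0.00584), its substrate Irak1 at 0.73 ± 0.16, and Chuk, an IkB kinase gene, at 0.86 ± 0.20. Transcription factors had 2 of 6 called, Irf8, which macrophages need to develop, at 1.76 ± 0.29 (adjusted p = 0.0161) and Rela, an NF-kB subunit, at 0.61 ± 0.15 (adjusted p = 0.0429). Negative regulators had 1 of 10 called higher, near the 10.1% of all genes tested. It was Irak3, an inhibitory IRAK family gene, at 1.26 ± 0.31. Another 1 was called lower (5.9% of all genes tested were), the deubiquitinase gene Cyld, at -0.58 ± 0.15. Of the induced cytokines and chemokines 2 of 8 were called, Ccl4 at 3.60 ± 0.64 (adjusted p = 0.0197) and Ccl5 at 1.76 ± 0.42, both attractants of leukocytes. Among endogenous ligands 2 of 3 were called, the matrix proteoglycan gene Bgn at 1.72 ± 0.23 and Fn1, which encodes fibronectin, at 1.5 ± 0.20.

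**Figure D3:**
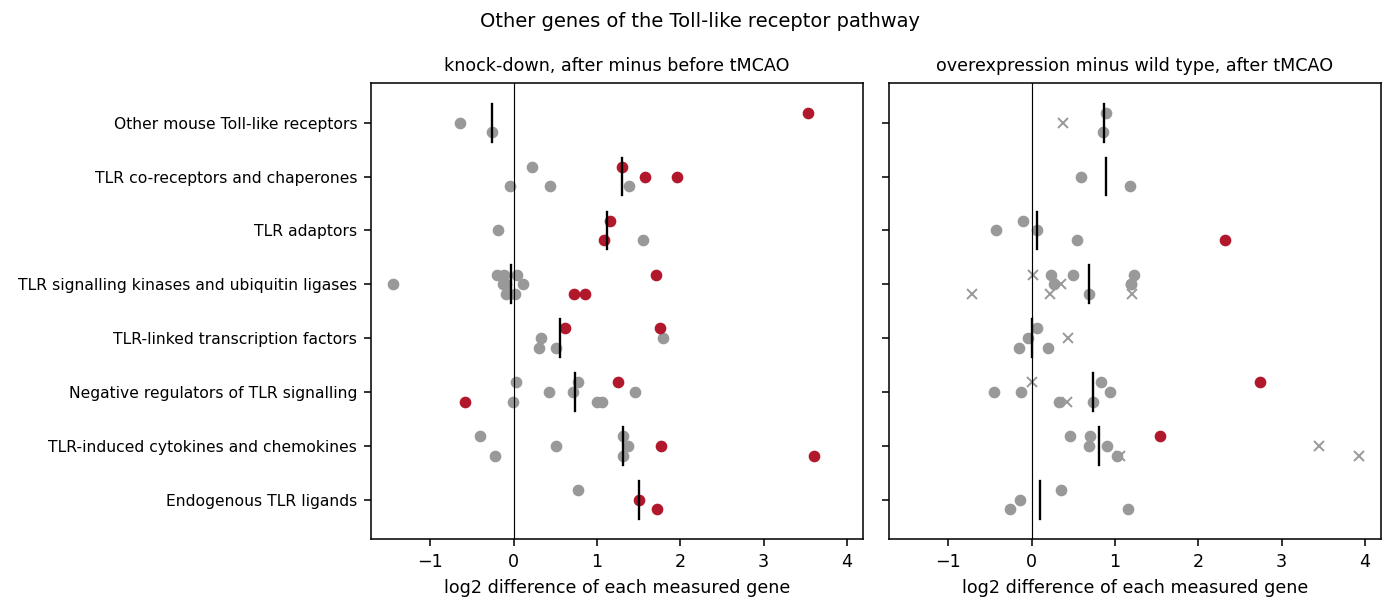
Log2 difference (x axis) of each measured gene of the 8 pathway lists in knock-down after minus before tMCAO (left) and overexpression minus wild type after tMCAO (right). Tlr8 is red on the left but was above background after tMCAO alone and is not given as a call. Red dots passed at an adjusted p under 0.05, short black lines are medians of the dots, and crosses on the right are genes outside the counts (1 usable array per group, or above background in overexpression alone); the kinases centre near 0 on the left (median -0.04), and the co-receptors at 1.30.

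Markers of other cells also differed in this comparison, some lists being higher and some lower. Over all genes tested 10.1% were called higher and 5.9% lower. The summed level of the 10 monocyte and border macrophage markers was 28.2 and 26.9 times the array's 75th percentile in the knock-down arrays after tMCAO, against 9.15 and 9.48 before it. Of the 8 of these markers tested 5 were called higher, among them Ms4a7 at 3.27 ± 0.46 (adjusted p = 0.0107). The 8 microglia markers summed to 46.4 and 43.3 after tMCAO, against 32.1 and 30.9 before it, with Cx3cr1 at 1.41 ± 0.33 and Aif1 at 1.17 ± 0.21 (1 array after tMCAO) called among 4 tested. The 8 neutrophil markers summed to 10.6 and 8.01, against 6.04 and 5.51, and to 3.76 and 11.3 in wild type before tMCAO. Of 4 neutrophil markers tested 1 was called higher, 2 differences were above 0 and the median was -0.02. Of 7 lymphocyte markers tested 1 was called higher and 1 lower, with a median of -0.25. Of 3 erythroid markers tested 2 were called lower, with a median of -1.97. Oligodendrocyte lineage markers summed to 44.2 and 44.4 after tMCAO, against 31.8 and 31.7 before it, with 1 of 2 called higher, Mog at 0.99 ± 0.22. Astrocyte markers summed to 30.1 and 32.5, against 23.1 and 23.4, with 1 of 5 called higher, Gfap at 2.10 ± 0.24 (1 array after tMCAO). Endothelial and mural markers summed to 24.8 and 24.1, against 17.7 and 18.7, with 2 of 6 called higher, Pecam1 at 1.48 ± 0.16 and Pdgfrb at 0.84 ± 0.20. Neuron markers summed lower, to 39.9 and 44.1, against 50.3 and 50.5, with 1 of 3 called lower, Slc17a7 at -1.23 ± 0.18. All 10 monocyte and border macrophage markers were well above background on all 8 arrays of this slide, before tMCAO as well as after it. Some monocytes also carry CX3CR1. The part of these cells in the receptor differences was not tested. The groups also differed in slide position, in columns 1 and 2 of the first row after tMCAO and in columns 3 and 4 of the second row before it. The share of marked spots was 20.8% and 23.5% in knock-down after tMCAO, and 1.87% and 1.03% in knock-down before it. In overexpression arrays before tMCAO, in columns 1 and 2 of the second row, it was 23.7% and 18.2%. The part of slide position in the receptor differences was not tested.

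**Figure D4:**
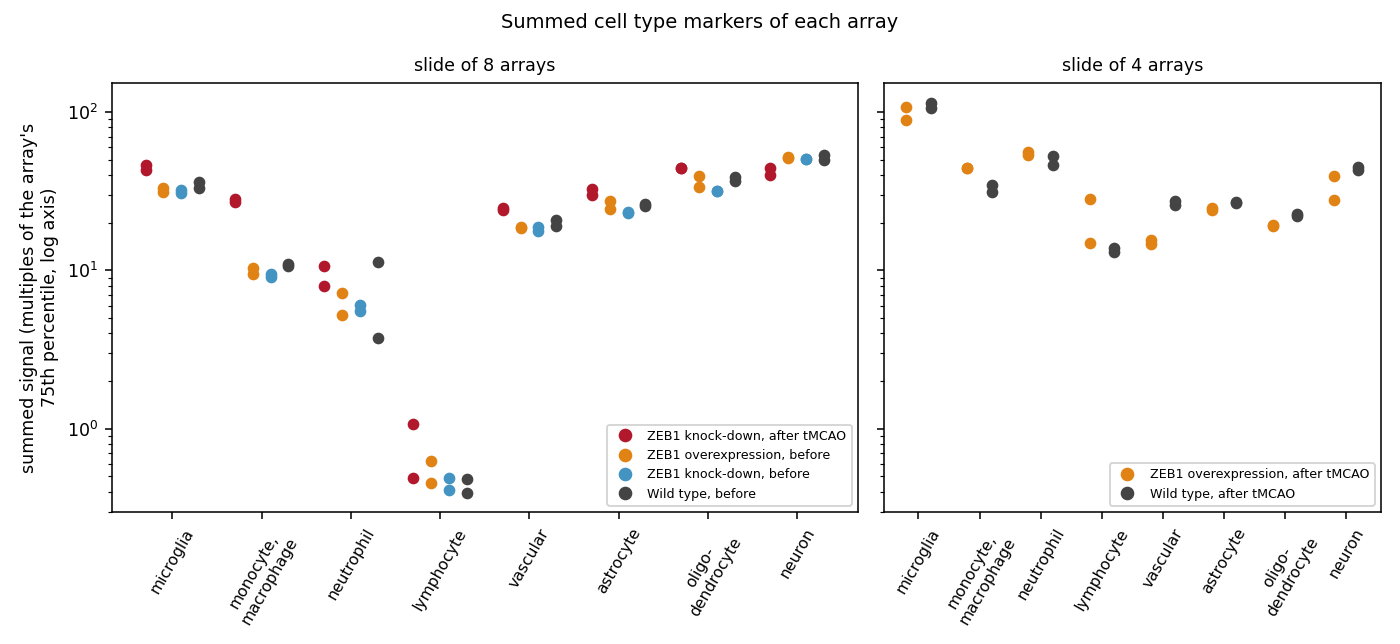
Summed signal of each marker list (y axis, multiples of the array's 75th percentile, log axis) on each array, for the slide of 8 arrays (left) and of 4 arrays (right). The monocyte and macrophage sum of both knock-down arrays after tMCAO, 28.2 and 26.9, lies above the other 6 arrays of the slide, and the 2 panels are not on a common scale because the probes differ.

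The genes whose profile over the 8 arrays was nearest to the mean profile of the 7 receptor, co-receptor and adaptor genes measured on all of them were Gimap9, Lrmp, Fn1, Col16a1 and Poln. Their root mean square difference from that profile was 0.06 for Gimap9 and 0.10 to 0.11 for the other 4, on the log2 scale, among 18447 genes. The 8 arrays share a slide and the profile is dominated by the 2 arrays after tMCAO.

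ZEB1-overexpression was next compared with wild type after tMCAO, on the 4-array slide. Tlr3 and Tlr4 were higher in overexpression, and Myd88 lay just outside the threshold. Of 7 genes that could be tested 2 were called higher, where 1.58% of the 22072 genes in the fit were called higher and 2.31% in either direction. The fit also held 2157 genes with 1 usable array per group, Tlr6 among them, which have no spread of their own and made up 4 of its 510 calls. Such genes are given below as values with no test. Over the other 19915 genes 1.73% were called higher. The median of the 7 genes was 1.02 against -0.12 over these genes. A gene with 1 usable array in 1 group was tested with that array assumed to vary like the other group. With marked spots kept, 3 of 10 genes were called, with 1.95% of 27935 genes called higher and 3.2% in either direction in that fit. Both overexpression arrays lay above both wild type arrays in 7 of 10 genes, as in 21.6% of all genes.

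Tlr4 lay at -0.89 and -0.94 in overexpression arrays, against -2.20 and -2.24 in wild type arrays. Both groups were tight and apart by more than 1 log2 unit, and the difference was 1.30 ± 0.24 (adjusted p = 0.0449). Tlr3 lay at -3.07 and -3.05 in overexpression, against -4.95 and -4.41 in wild type. The overexpression arrays were higher, with a difference of 1.62 ± 0.28 (adjusted p = 0.0363). Myd88 lay at 1.11 and 1.43 in overexpression, against -0.06 and 0.03 in wild type (marked spots left out). Its difference of 1.29 ± 0.25 was as large as that of Tlr4 but gave an adjusted p of 0.0532, 0.0483 when genes with no spread were left out of the adjustment, and 0.0364 with marked spots kept (1.32 ± 0.23).

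These calls rested on the settings. The number of genes called of these 10 was 0 when probes were averaged, when the median was subtracted, without a filter on dim probes, with normexp and with quantile normalization. Under all of these but normexp the differences were nearly the same, 1.61 to 1.65 for Tlr3 and 1.30 to 1.33 for Tlr4. Under normexp they were 0.44 for Tlr3 (adjusted p = 0.585) and 0.93 for Tlr4 (adjusted p = 0.262). The number was also 0 without either wild type array, and Tlr4 lost its call with any array left out (adjusted p 0.0514 to 0.253).

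None of the remaining genes passed. Tlr1 lay at 1.69 and 2.02 in overexpression, against 1.05 and 0.96 in wild type, apart but with 1 overexpression spot marked (1.02 ± 0.31 on the other, adjusted p = 0.149). Tlr2 lay at 3.0 and 3.19, against 2.32 and 2.40, also apart, with 3 of the 4 spots marked and a difference of 0.74 ± 0.23 with these kept (adjusted p = 0.124). Tlr6 lay at 0.54 and 0.94 in overexpression, against 0.24 and -0.37 in wild type, a difference of 0.70 on the 1 unmarked array per group, which has no test, and of 0.81 ± 0.29 with marked spots kept (adjusted p = 0.171). With marked spots kept, the groups of each of these 3 lipoprotein receptors were apart, as were those of 21.6% of all genes, and none of the 3 passed.

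Cd14, with all 4 spots marked, lay at 2.73 and 3.05 in overexpression and at 2.72 and 2.05 in wild type, so that the groups nearly touched (0.50 ± 0.30 with marked spots kept, adjusted p = 0.363). The endosomal receptors Tlr7 and Tlr13 overlapped between groups. Tlr7 lay at 2.60 and 2.65, against 2.63 and 2.21, and Tlr13 at 3.39 and 3.10, against 3.30 and 2.73, with differences of 0.41 ± 0.31 and 0.52 ± 0.33 on 1 wild type array (adjusted p = 0.508 and 0.427). A dimmer Tlr7 probe differed by 0.97 ± 0.32 with marked spots kept and did not pass either (adjusted p = 0.134 in the fit of each probe). Tlr9 lay at -1.28 and -0.79 in overexpression, around both wild type values of -0.96 and -0.95, with a difference of -0.07 ± 0.27 (adjusted p = 0.906).

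**Figure D5:**
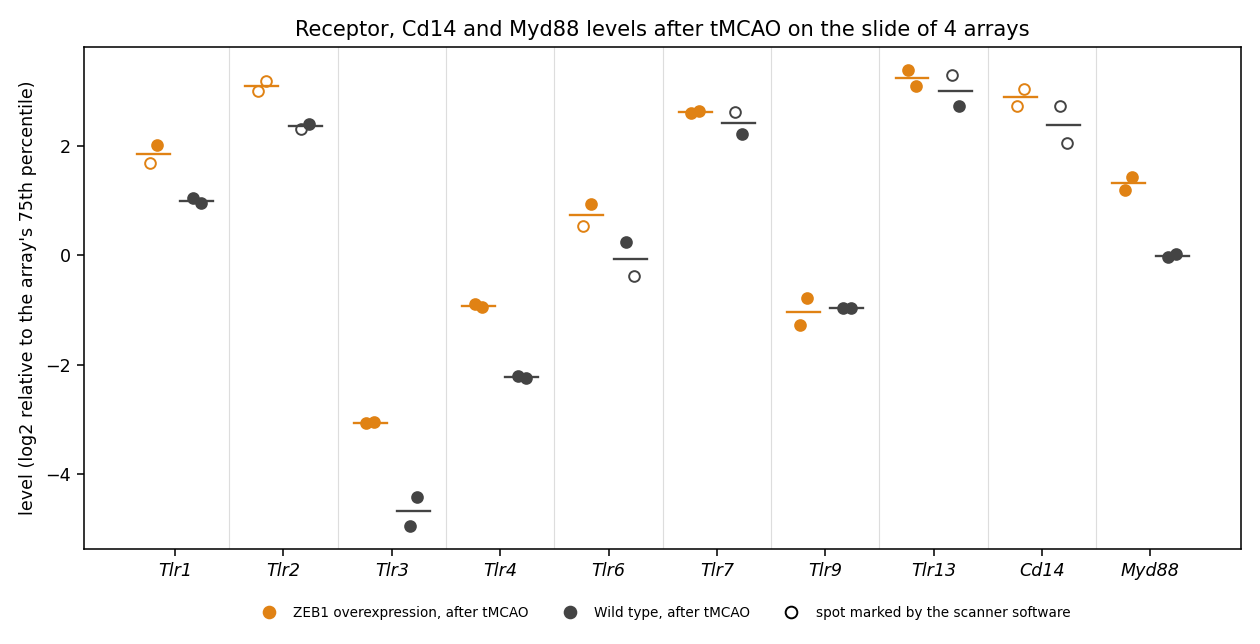
Level of each gene (y axis, log2, with the 75th percentile of an array at 0) on each of the 4 arrays after tMCAO, overexpression left of wild type. Dots are arrays, short lines are group means, and open dots are spots marked by the scanner software; Tlr4, Tlr3 and Myd88 stand apart by 1.30 to 1.62 log2 units, and the groups of Tlr7, Tlr9 and Tlr13 overlap.

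The pathway lists were counted over genes that were well above background in both groups and had spread of their own. Of the induced cytokines and chemokines 1 of 6 was called higher in overexpression, with a list median of 0.80. That was Tnf, which encodes tumour necrosis factor, at 1.55 ± 0.24 (adjusted p = 0.0287). Il10, an anti-inflammatory cytokine gene, was at least 7.27-fold higher than in wild type, where it was not well above background. It passed the filter through overexpression alone, so it is given without a p-value and is not in the count. Cxcl10, a chemokine gene induced by interferon, was at 3.45 on 1 array per group, which has no test, and at 2.56 ± 0.44 with marked spots kept (adjusted p = 0.0349). Adaptors had 1 of 5 called, Pik3ap1, which links the receptors to PI3 kinase, at 2.32 ± 0.36 (adjusted p = 0.0295). Negative regulators had 1 of 7 called, Socs1, a feedback inhibitor of cytokine signalling, at 2.74 ± 0.34 (adjusted p = 0.0222), on 1 overexpression array that is assumed to vary like those of wild type.

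The other lists held no call. Of the other Toll-like receptors 0 of 2 passed, Tlr5, the flagellin receptor, being at 0.89 ± 0.27 and Tlr11 at 0.85 ± 0.24. Kinases and ubiquitin ligases had 0 of 7 called, with Ikbke at 1.23 ± 0.26 (adjusted p = 0.0621). Tbk1, like Ikbke a kinase of interferon regulatory factors, was at 1.21 on 1 array per group, with no test. Co-receptors had 0 of 2 called (Cd180 at 1.19 ± 0.39 and Cd36 at 0.60 ± 0.50). Transcription factors had 0 of 4 called, with Nfkb1 at 0.20 ± 0.27, and Irf5 was at 0.44 on 1 array per group, with no test. With marked spots kept, 1 of 16 kinases and ubiquitin ligases was called higher, Ikbke (1.23 ± 0.24, adjusted p = 0.0495), and 1 of 7 transcription factors, Irf7, a regulator of interferon genes, at 3.89 ± 0.34 (adjusted p = 0.006). Endogenous ligands had 0 of 4 called (Vcan at 1.16 ± 0.45 and Tnc at 0.35 ± 0.28). In the fit over all genes 20.8% had an unadjusted p under 0.05.

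Marker sums differed here too. The 9 monocyte and border macrophage markers with a probe summed to 44.6 and 44.1 in overexpression, against 34.9 and 31.5 in wild type, with 0 of 7 called. Endothelial and mural markers summed to 15.5 and 14.7, against 25.8 and 27.6, with 0 of 7 called. With marked spots kept, 3 of 10 were called lower, where 3.2% of all genes were called in either direction and 1.95% higher. These 3 were Cldn5 at -1.52 ± 0.26, Des at -1.30 ± 0.24 and Acta2 at -1.17 ± 0.22. Neutrophil markers summed to 53.8 and 56.0, against 53.1 and 46.2, and the 1 of them that could be tested, Elane, was called higher at 2.01 ± 0.37 (adjusted p = 0.0463). With marked spots kept, 1 of 7 neutrophil markers was called higher, with 4 of the 7 differences above 0 and a list median of 0.44. Microglia markers summed to 108 and 89.0, against 115 and 107, with 0 of 3 called. Lymphocyte markers summed to 14.9 and 28.3, against 13.1 and 13.9, with 0 of 7 called and a list median of 0.71. Neuron markers summed to 39.6 and 27.8, against 44.7 and 42.8, with 0 of 2 called. Oligodendrocyte lineage markers summed to 19.5 and 19.1, against 22.6 and 22.0, with 0 of 4 called. Astrocyte markers summed to 24.7 and 24.1, against 26.7 and 27.0, with 0 of 3 called. The part of these cells in the receptor differences was not tested. Overexpression filled row 2 of the slide and wild type row 1, so that the effects of row and genotype cannot be told apart.

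Before tMCAO, the design asked whether the genotypes already differed, and no gene of the 10 passed in any of the 3 comparisons, which share arrays with each other and with the comparison of knock-down after and before tMCAO. In overexpression against wild type, limma called 0 of 9 genes (0% of 25162 genes tested, with 10.8% at an unadjusted p under 0.05). Differences ran from -0.89 to 0.28, and 1 of the 9 genes had an unadjusted p under 0.05. That was Tlr1, at -4.92 on the unmarked overexpression array, against -4.06 and -4.01 in wild type (-0.89 ± 0.19, adjusted p = 0.316). The marked overexpression spot of Tlr1 lay at -3.85, above both wild type arrays, and with it kept the difference was -0.35 ± 0.49. The second Tlr1 probe, unmarked, lay at -5.51 and -5.07 in overexpression, against -4.24 and -4.87 in wild type. Its difference was -0.73 ± 0.46, and it was not well above background in overexpression. Both overexpression arrays lay below both wild type arrays for 2 genes, Tlr4 and Cd14 (24.5% of all genes), and above them for 1, Tlr9 (22.8% of all genes).

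In knock-down against wild type before tMCAO, 0 of 10 genes were called (0% of 30293 genes tested, with 8.75% at an unadjusted p under 0.05). Tlr1 lay at -4.58 and -4.57 in knock-down, against -4.06 and -4.01 in wild type, and Cd14 at -1.60 and -1.47, against -1.04 and -1.02. Both genes were lower on both knock-down arrays, with differences of -0.54 ± 0.14 (adjusted p = 0.421) and -0.51 ± 0.19 (adjusted p = 0.527). They were the 2 genes with an unadjusted p under 0.05. The second probes of Tlr1 and Cd14 differed by -0.48 ± 0.46 and -0.52 ± 0.20. The 10 differences ran from -0.54 to 0.26, and 3 genes (Tlr1, Tlr6 and Cd14) lay lower on both knock-down arrays than on both wild type arrays, as did 30% of all genes.

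In overexpression against knock-down before tMCAO, 0 of 9 genes were called (0% of 25167 genes tested, with 13.3% at an unadjusted p under 0.05), and 0 had an unadjusted p under 0.05. Tlr9 and Myd88 had the highest differences, 0.33 ± 0.16 (95% interval -0.06 to 0.72) and 0.32 ± 0.25, and Tlr1 the lowest, -0.35 ± 0.19. Tlr9, Cd14 and Myd88 lay higher on both overexpression arrays than on both knock-down arrays, as did 31.8% of all genes. The widest intervals of the 3 comparisons were those of Tlr7. They ran from -1.53 to 0.83 in overexpression against wild type and from -1.63 to 0.74 in knock-down against wild type. In overexpression against knock-down the Tlr7 interval was -1.08 to 1.27. A 2-fold lower level of Tlr7 lay within all 3, and a 2-fold higher level within the last alone. The intervals of Tlr9 against wild type, -0.10 to 0.67 in overexpression and -0.40 to 0.31 in knock-down, left out both.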

How the data were processed

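Spot intensity on a linear scale was deposited by the authors after background subtraction and detrending by Agilent Feature Extraction 11.5.1.1, per the file headers (9.1 per the submitters' processing notes). Yes or no marks per spot (unit "other", per the file headers) give outliers, saturation and signal over background. The log2 value tables deposited by the authors matched single scanner files up to a constant; those of the 2 knock-down arrays after tMCAO matched each other's file. The probe annotation is given for mm9 in the file headers, so no coordinates were taken from it.

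Levels are log2 of the processed signal minus that array's 75th percentile, without marked spots and averaged over the spots of a probe. Probes well above background on both arrays of a group were kept, and the brightest stood for its gene. RefSeq accessions named 48.1% and 59.7% of the probes. Groups of a slide were fitted together with limma 3.58.1 (R 4.3.3, two-sided, Benjamini-Hochberg adjustment over all genes), and the fit was tested on simulated data. An "at least" fold sets the brighter group's mean against, per array, the higher of the dim probe's own level and the lowest level well above background. Alternatives were marked spots kept, averaged probes, stricter or no filters, median, quantile and normexp scaling (on the median signal, since the files used here hold no mean signal, and an offset of 50), the value tables, a replicate block, the 2 groups alone and each array left out. Fits of each probe, and a fit without genes of 1 usable array per group, were added after seeing the data.

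The 10 genes and all lists were chosen with earlier results of these data known. Named were all 10 genes, up to 4 called genes of a list by smallest adjusted p, or, with no call, the 2 with the largest difference, and the 5 genes nearest in profile; Ly96, the genes called only with marked spots kept (Irf7, Cldn5, Des and Acta2), the second probes and the motifs were added after their values were seen. The number of arrays limits the precision.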

Additional observations from a re-analysis of the deposited data

Results flagged for a closer look

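For Tlr4 and Cd14, the arrays separated in opposite directions after and before tMCAO when overexpression was set against wild type. With marked spots kept, the log2 difference of Tlr4 was 1.30 after tMCAO and -0.16 before it, and that of Cd14 was 0.50 after and -0.29 before. Each time both overexpression arrays lay on the same side of both wild type arrays, as did those of 21.6% of all genes (higher) after tMCAO and of 24.5% (lower) before it. The share of all genes that separated in both ways was not counted. All 4 Cd14 spots after tMCAO were marked, and the arrays nearest to each other lay at 2.73 in overexpression and 2.72 in wild type. The difference between the times was not tested, the slides and, for both genes, the probes differ, and of these 4 values Tlr4 after tMCAO was the 1 that passed.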

How the results depend on the processing

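In knock-down after against before tMCAO, 4 to 7 of the 10 genes stayed called over 10 alternatives and 2 to 4 with an array left out; Cd14 and Tlr13 kept their calls under all of these. The difference of Tlr13 was 4.0 with averaged probes, against 2.15, and 1.88 to 2.17 under the other 9 alternatives. The number of all genes called, 3940, became 1715 with no filter on dim probes, 7089 with normexp, 2013 with the 2 groups alone and 475 to 3308 with an array left out. It was 475 and 580 without knock-down replicates 2 and 1 before tMCAO, and 1539 without replicate 1 after it; a lone array is assumed to vary like the other groups. Tlr9 turned to -0.21 with the median subtracted and -0.052 with quantile normalization, and ran from -0.035 to 0.14 with an array left out.

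In overexpression against wild type after tMCAO, the 510 genes called became 895 with marked spots kept, 297 with the median subtracted, 334 with normexp, 318 with quantile normalization and 0 with averaged probes or no filter. The count was 54 and 115 without wild type replicates 1 and 2, and 857 and 1079 without overexpression replicates 2 and 1. Of the 10 genes 0 to 3 were called over the alternatives and 0 to 2 with an array left out. Tlr9 ran from -0.32 to 0.17 with an array left out. With the genes of 1 usable array per group left out of the fit, 579 of all genes and 3 of the 10 were called, Myd88 among them (adjusted p = 0.0483). The causes were not tested.

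Before tMCAO none of the 10 genes was called under the 10 alternatives or with an array left out. Over all genes, averaged probes called 463 in overexpression against wild type and 512 against knock-down, the median 1 in each comparison, quantile normalization 6 in overexpression against wild type, 1 in knock-down against wild type and 4 in overexpression against knock-down, and an array left out 0 to 2 and 0 to 3 against wild type. Small differences changed sign. With an array left out in overexpression against wild type, Tlr13 ran from -0.32 to 0.089 and Tlr7 from -0.85 to 0.14. In knock-down against wild type, the median gave Myd88 0.026, Tlr13 0.052, Tlr2 0.087 and Tlr9 0.14, averaged probes gave Tlr13 0.023, and normexp gave Tlr4 -0.051 and Tlr9 0.0074. With an array left out there, Tlr13 ran from -0.28 to 0.0095, Tlr2 from -0.28 to 0.086, Tlr3 from -0.25 to 0.76, Tlr4 from -0.28 to 0.38, Tlr7 from -0.94 to 0.048 and Tlr9 from -0.17 to 0.082. In overexpression against knock-down, marked spots kept gave Tlr1 0.19, averaged probes gave Tlr13 -0.49, the median gave Tlr13 -0.089, Tlr6 -0.055 and Tlr7 -0.0096, normexp gave Tlr2 0.11 and quantile normalization gave Tlr6 -0.16. With an array left out there, Tlr13 ran from -0.19 to 0.22, Tlr2 from -0.23 to 0.14, Tlr4 from -0.54 to 0.11, Tlr6 from -0.10 to 0.21 and Tlr7 from -0.37 to 0.57.

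Replicate numbers did not pair the samples by the rule used (correlation of deviations 0.04 to 0.17, with 2 pairs a comparison). With the replicate block, 444 genes were called in overexpression against wild type after tMCAO, 1 of them among the 10 (Tlr4 lost its call, adjusted p = 0.0622), and 4138 with 5 among the 10 in knock-down after against before tMCAO.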
